A study of Mus musculus with 27 samples.

Results

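Striatum was compared with frontal cortex in mice that lack an enhancer in the intergenic region of H19 and Igf2. The libraries were all those labelled Igf2enh-/- among the 27 RNA-sequencing libraries of the study, and there were 14 of them. Six3, Drd2, Adora2a and Penk were among the genes much higher in the striatum, and Slc17a7, Neurod6, Grm2 and Vip among those lower there. The 8 striatal libraries came from 4 females and 4 males, and the 6 frontal cortex libraries from 3 females and 3 males. All were adults of about 2.5 months on the 129S1 background, were homozygous for a deletion of chr7:149796331-149801250 (mm9), and carried a single loxP site at the deletion. The deletion was made in embryonic stem cells and the selection cassette was removed by crossing to a Hprt-CRE female, so it is present in every cell of both regions. The 13 wild-type (+/+) libraries of the same regions, 6 of frontal cortex (3 females and 3 males) and 7 of striatum (3 females and 4 males), were used to ask whether the region difference depended on the enhancer. Which striatal and cortical samples share a mouse is not given by the labels, and all libraries were treated as independent. Frontal cortex carried the library numbers 1 to 12 and striatum 13 to 27, and the labels do not say what the numbers stand for.

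The striatum is built mainly of medium spiny neurons, GABA-releasing projection neurons that receive glutamate from the cortex and dopamine from the midbrain. They fall into a class that carries D1 dopamine receptors with the peptides substance P and dynorphin, and a class that carries D2 dopamine and adenosine receptors with enkephalin. Large cholinergic interneurons make up a small share of striatal cells. The frontal cortex is built mainly of layered pyramidal neurons that release glutamate through the vesicular transporter encoded by Slc17a7, together with interneurons that carry peptides such as VIP. Both tissues share glial and vascular cells.

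Of 14602 genes that reached 1 CPM (a count divided by the total of its library, times 1000000) in each library of a region, 5152 were higher (35.3%) and 4934 lower (33.8%) in the Igf2enh-/- striatum at an adjusted p under 0.05. The test was the quasi-likelihood F-test of edgeR with sex as a covariate. The CPM values printed here are also divided by the TMM scaling factor of edgeR, which ran from 0.982 to 1.04 over the 14 libraries. Most of these differences were small, since 57.8% of the called genes differed by less than 0.5 on the log2 scale. At least 2-fold differences were found for 902 genes that were higher (6.18%) and 965 that were lower (6.61%). Every striatal library lay above every cortical library for 3199 genes (21.9%), and below for 3130 (21.4%). Among genes at least 2-fold higher, 874 had no overlap of the libraries, and 871 of those at least 2-fold lower had none. In a bulk sample, fewer cells of a type and less RNA per cell cannot be told apart, so these values describe the tissue and not a cell.

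**Figure D1:**
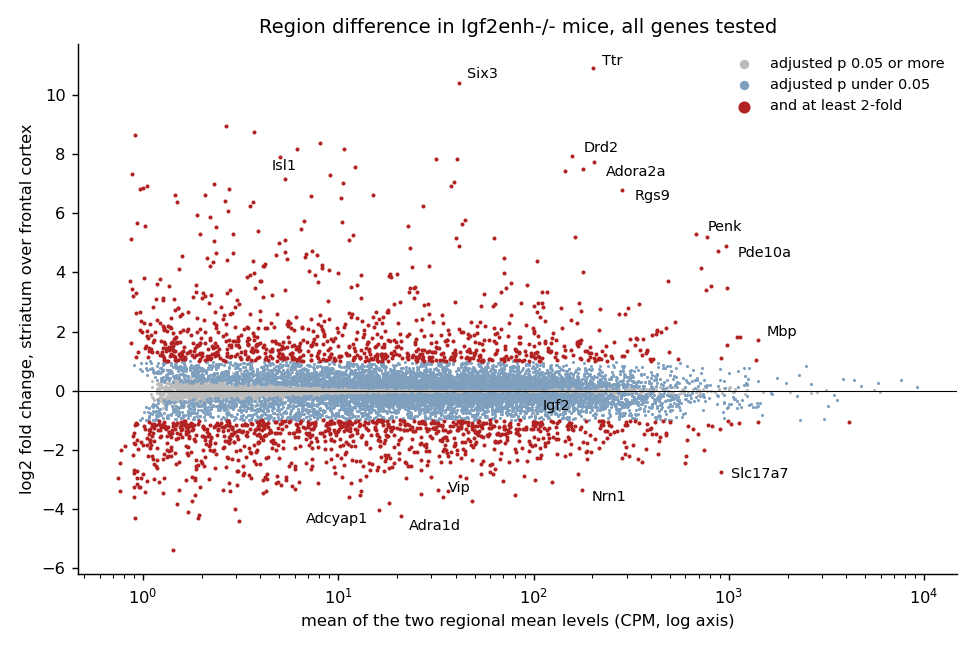
Each point is a gene tested in the 14 Igf2enh-/- libraries, with the average of the mean levels of the regions in CPM on a log axis and the log2 fold change of striatum over frontal cortex. Among the named genes the highest lie at 10.9 (Ttr) and 10.4 (Six3) and the lowest at -4.22 (Adra1d).

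The largest differences were not symmetrical. A log2 fold change of 5 or more was found for 63 genes that were higher in the striatum, and of -5 or less for 1 gene, Cdh1, an epithelial cadherin named here after its value was seen. At 3 or more the counts were 158 higher and 57 lower. In wild-type mice the counts were 54 and 1 at 5 or more, and 138 and 31 at 3 or more. The striatal libraries carried cortical transcripts to unequal extents. Slc17a7 stood at 98.8 CPM in library 13 and at 558 CPM in library 23, and the cortex had 1468 to 1678 CPM. Library 23 was the highest of the striatal libraries for 69.1% of the genes at least 2-fold lower in striatum and library 19 for 19.7%, against 16.2% and 15.9% of all genes tested. The same libraries were the lowest for 38.7% and 37.1% of the genes at least 2-fold higher, against 14.4% and 20.2% of all genes. Without libraries 19 and 23, 179 genes were higher and 105 lower by 3 or more on the log2 scale. At 5 or more, leaving out the same libraries gave 69 higher and 6 lower. These libraries were chosen after the values were seen, for the highest Slc17a7 and the lowest Penk, and that choice fixes the direction of the change. The part of cortical tissue in these libraries was not tested.

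Total counts ran from 24794401 to 32949944 over the 14 libraries, and 1 CPM stood for 24.6 to 33.5 reads. The share of mitochondrial counts was 3.73% to 4.43% in the cortex and 4.48% to 5.03% in the striatum, without overlap. Library 15 (striatum) held 4837 CPM of the choroid plexus list, while its striatal neighbours held 185 to 370 CPM, and was the highest striatal library for 17 of the 17 genes of that list. Library 9 (frontal cortex) had the olfactory bulb list at 85.1 CPM, and the rest of the cortex had it at 22.8 to 37.7 CPM. Library 19 (striatum) had the thalamus list at 126 CPM, and the rest of the striatum at 71.6 to 79.3 CPM. It was the highest striatal library for 3 of the 7 genes of that list and the lowest for 1. Prkcd, a protein kinase C gene, made up most of the excess, at 52.1 CPM there and at 10.0 to 14.8 CPM in the other striatal libraries. The first principal component of log2 CPM held 85.1% of the variance and separated the regions, and on it libraries 19 and 23 were the striatal libraries nearest to the cortex. Without libraries 15 and 9 the counts of at least 2-fold calls were 915 higher and 1005 lower, of which 883 and 952 were shared with the full comparison.

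**Figure D2:**
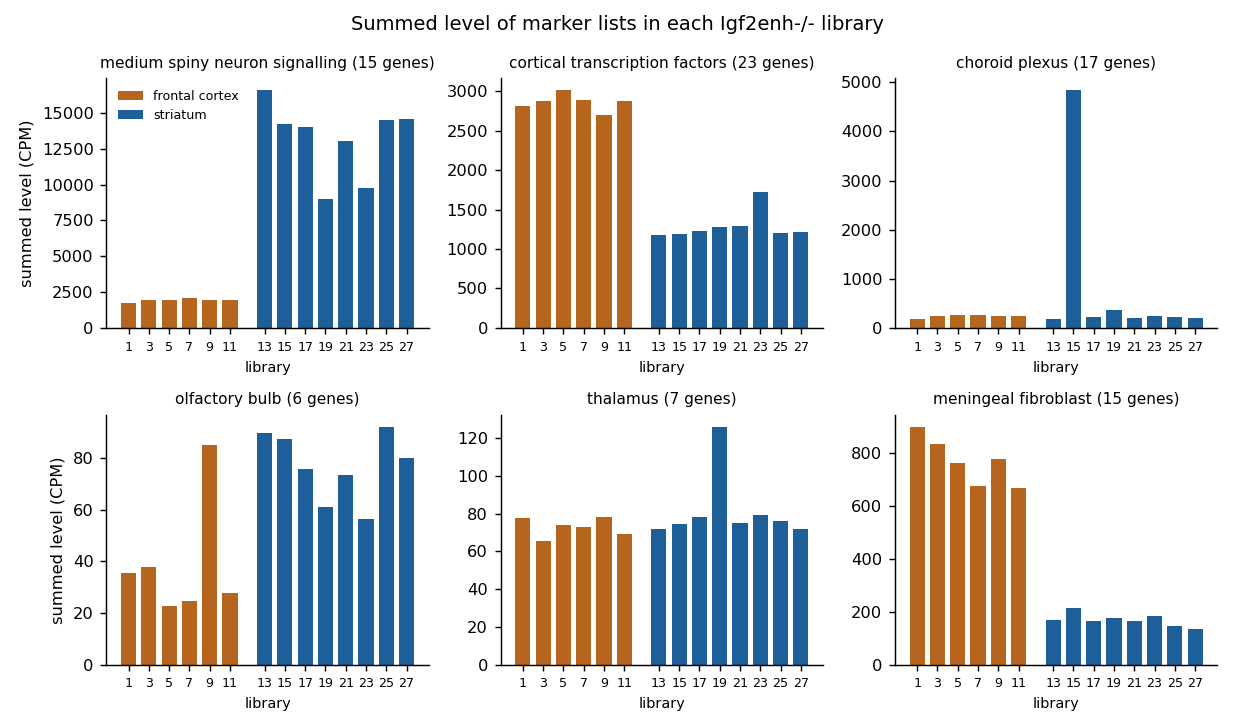
Bars give the summed level in CPM of the genes of 6 marker lists in each of the 6 frontal cortex and 8 striatal Igf2enh-/- libraries, numbered as in the labels. Library 15 stands out for choroid plexus at 4837 CPM, library 9 among the cortical libraries for olfactory bulb at 85.1 CPM, and library 19 for thalamus at 126 CPM.

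The markers of the tissues followed the labels in every library. Penk, which encodes preproenkephalin, ran from 26.9 to 39.0 CPM in the frontal cortex (median 33.7) and from 852 to 1822 CPM in the striatum (median 1368), a log2 fold change of 5.29 ± 0.18 (SE, adjusted p = 6.6e-12). Slc17a7 ran from 1468 to 1678 CPM in the cortex (median 1566) and from 98.8 to 558 CPM in the striatum (median 188), a log2 fold change of -2.75 ± 0.27 (adjusted p = 3.5e-07). Neither gene had overlapping libraries. The striatal libraries with the most Slc17a7, 23 at 558 CPM and 19 at 360 CPM, were those with the least Penk, at 975 and 852 CPM.

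The promoters of 4 genes on which these contrasts turn are shown, since each marks a class of neuron on one side of the comparison. Drd2 and Tac1 belong to the D2 and D1 classes of medium spiny neuron, Slc17a7 to pyramidal neurons and Vip to cortical interneurons. Each window holds 250 bases before and 50 after a RefSeq start in GRCm38.p6, read 5′ to 3′ on the strand of the gene. Both strands were searched for the TATA box TATAAA, for the E-box hexamer CATCTG that NeuroD factors bind, and for the cAMP response element TGACGTCA, and capitals mark their matches.
Drd2, chr9:49340153-49340452, plus strand: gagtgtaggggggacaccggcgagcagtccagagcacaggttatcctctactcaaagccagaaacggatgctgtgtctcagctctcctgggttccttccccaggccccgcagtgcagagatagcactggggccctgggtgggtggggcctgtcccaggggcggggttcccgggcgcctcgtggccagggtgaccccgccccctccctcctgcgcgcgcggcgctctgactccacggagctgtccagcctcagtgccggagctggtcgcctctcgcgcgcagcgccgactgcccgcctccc
Tac1, chr6:7554811-7555110, plus strand: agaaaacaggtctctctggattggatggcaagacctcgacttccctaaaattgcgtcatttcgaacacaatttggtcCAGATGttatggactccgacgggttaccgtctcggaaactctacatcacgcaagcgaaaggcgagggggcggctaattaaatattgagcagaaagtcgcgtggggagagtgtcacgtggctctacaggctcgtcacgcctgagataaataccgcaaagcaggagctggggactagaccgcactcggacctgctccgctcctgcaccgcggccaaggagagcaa
Slc17a7, chr7:45163671-45163970, plus strand: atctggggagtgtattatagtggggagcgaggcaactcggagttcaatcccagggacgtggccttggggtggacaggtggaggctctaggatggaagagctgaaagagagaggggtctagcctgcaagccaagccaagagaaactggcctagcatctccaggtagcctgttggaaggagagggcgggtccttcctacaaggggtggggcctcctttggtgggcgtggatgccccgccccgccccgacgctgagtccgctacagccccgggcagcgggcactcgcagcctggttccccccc
Vip, chr10:5638968-5639267, plus strand: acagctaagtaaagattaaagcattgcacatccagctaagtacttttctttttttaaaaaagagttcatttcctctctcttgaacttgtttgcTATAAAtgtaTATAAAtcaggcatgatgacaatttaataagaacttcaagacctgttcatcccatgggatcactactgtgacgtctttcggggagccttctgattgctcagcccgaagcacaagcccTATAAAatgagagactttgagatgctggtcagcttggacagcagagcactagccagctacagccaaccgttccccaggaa
The Vip window held TATAAA 3 times, the last with its first base at position -30 from the start, and the Tac1 window held the E-box CATCTG on the minus strand. The windows of Drd2 and Slc17a7 held none of the 3 motifs. TATAAA was in 9.37% of the promoters of genes at least 2-fold higher in the striatum, in 10.4% of those at least 2-fold lower and in 7.13% of those of all genes tested. CATCTG was in 16.6%, 15.2% and 11.7%, and the cAMP response element TGACGTCA in 1.67%, 2.22% and 2.94%, in the same order. The promoters of a single chromosome were left out before these shares were taken. Among the rest, RefSeq symbols gave a promoter for 580 of the 902 higher genes, 647 of the 965 lower genes and 10619 of all genes tested.

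All 15 genes of the medium spiny neuron signalling list that were tested were higher in the striatum, 14 of them at least 2-fold, with a median log2 fold change of 4.03 against 0.01 over all genes tested. Over all genes tested 35.3% were higher and 33.8% lower, and the counts of every list below stand beside those shares. Summed over the list, the level ran from 1753 to 2054 CPM in the cortex and from 8977 to 16580 CPM in the striatum, where libraries 19 and 23 were lowest. Adora2a, the adenosine receptor of the D2 class, ran from 1.62 to 2.17 CPM in the cortex (median 1.9) and from 262 to 527 CPM in the striatum (median 429), and its log2 fold change was 7.72 ± 0.17 (adjusted p = 2.2e-13). Syndig1l, a gene related to the synapse inducer Syndig1, followed at 7.49 ± 0.21, Gpr6, an orphan receptor, at 6.91 ± 0.19, and Rgs9, which speeds the shut-off of G proteins, at 6.80 ± 0.17. Ppp1r1b, which encodes the phosphatase regulator DARPP-32, was higher by 4.72 ± 0.20. For each of these 5 genes every striatal library lay above every cortical library. The smallest difference of the list was that of Itpr1, an inositol trisphosphate receptor, at 0.73 ± 0.10.

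Dopamine receptors split by subtype. Drd2 ran from 1.2 to 1.62 CPM in the cortex (median 1.2) and from 212 to 434 CPM in the striatum (median 322), with a log2 fold change of 7.93 ± 0.18 (adjusted p = 2.2e-13). Drd1 ran from 6.61 to 10.4 CPM (median 8.69) and from 224 to 375 CPM (median 335), with 5.18 ± 0.16 (adjusted p = 3.3e-12). The groups did not overlap for either receptor, and the lowest Drd2 values of the striatum were those of libraries 23 and 19 at 212 and 214 CPM. Drd5 overlapped between the regions, at 2.52 to 4.34 CPM and 2.44 to 3.6 CPM, and did not pass the test (log2 fold change -0.19 ± 0.14, adjusted p = 0.23). Drd3 was at 0 in every cortical library and at 0.478 to 1.72 CPM in the striatum, and Drd4 was at 0.376 CPM or less in every library. Neither reached the level needed for the test.

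Of the 12 genes for synthesis, transport and breakdown of dopamine, 8 were tested, and 7 of them were higher in the striatum, by 1.69 or less on the log2 scale, beside 35.3% of all genes tested. Th encodes tyrosine hydroxylase, the rate-limiting enzyme of dopamine synthesis, and lies at chr7:142892779-142899995 (GRCm38). It ran from 0.714 to 5.31 CPM in the cortex (median 0.955) and from 4.63 to 6.21 CPM in the striatum (median 4.93). Library 9, with its olfactory bulb transcripts, held the highest cortical value, and it alone reached the striatal range. The log2 fold change was 1.69 ± 0.37 (adjusted p = 0.00088) with all libraries and 2.51 ± 0.14 (adjusted p = 3.9e-09) without library 9. The exact two-sided permutation test of mean log2 CPM gave p = 0.0040 with 8 striatal and 6 cortical libraries, and p = 0.0016, the smallest that 8 against 5 can give, without library 9. Ddc, the next enzyme of the pathway, was higher by 1.08 ± 0.12 and Qdpr, which regenerates its cofactor, by 0.77 ± 0.06. The transporters Slc6a3 and Slc18a2 stayed under the level needed for the test, at 0.233 CPM or less and at 4.16 CPM or less.

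Peptide genes moved in opposite directions. Of 15 tested neuropeptide genes, 6 were higher in the striatum and 9 lower, and 5 and 7 of these by at least 2-fold, where all genes tested gave 35.3% and 33.8%, and 6.18% and 6.61% at least 2-fold. Beside Penk, Tac1, the substance P precursor, ran from 7.47 to 11.9 CPM in the cortex (median 9.4) and from 141 to 243 CPM in the striatum (median 200), with a log2 fold change of 4.38 ± 0.13 (adjusted p = 3.3e-12). Pdyn, the prodynorphin gene, was higher by 1.40 ± 0.09, from a cortical median of 39.6 CPM to a striatal median of 103 CPM. Nts, the neurotensin precursor, was higher by 4.98 ± 0.46, with 48 counts in all cortical libraries together and 2167 in the striatal ones. Among the lower genes, Adcyap1, which encodes PACAP, ran from 20.4 to 46.3 CPM in the cortex (median 28.6) and from 0.634 to 4.61 CPM in the striatum (median 1.17), with -4.01 ± 0.38 (adjusted p = 2.2e-07). Vip ran from 50.6 to 70.0 CPM (median 57.7) and from 1.75 to 17.4 CPM (median 4.44), with -3.37 ± 0.36 (adjusted p = 8.1e-07). Tac1, Adcyap1 and Vip did not overlap between the regions. Grp, the gastrin-releasing peptide gene, was lower at -4.00 ± 0.59 and Cck, the cholecystokinin gene, at -2.82 ± 0.26. Sst and Npy, carried by interneurons of both tissues, differed less, at -0.23 ± 0.07 and -0.53 ± 0.09. The receptors for the opioid peptides differed in direction. Oprk1, the kappa receptor, was higher by 3.49 ± 0.15 and Oprd1, the delta receptor, by 0.38 ± 0.11, while Oprl1, the nociceptin receptor, was lower at -0.86 ± 0.12. Cnr1, the CB1 cannabinoid receptor, was higher by 1.07 ± 0.10.

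**Figure D3:**
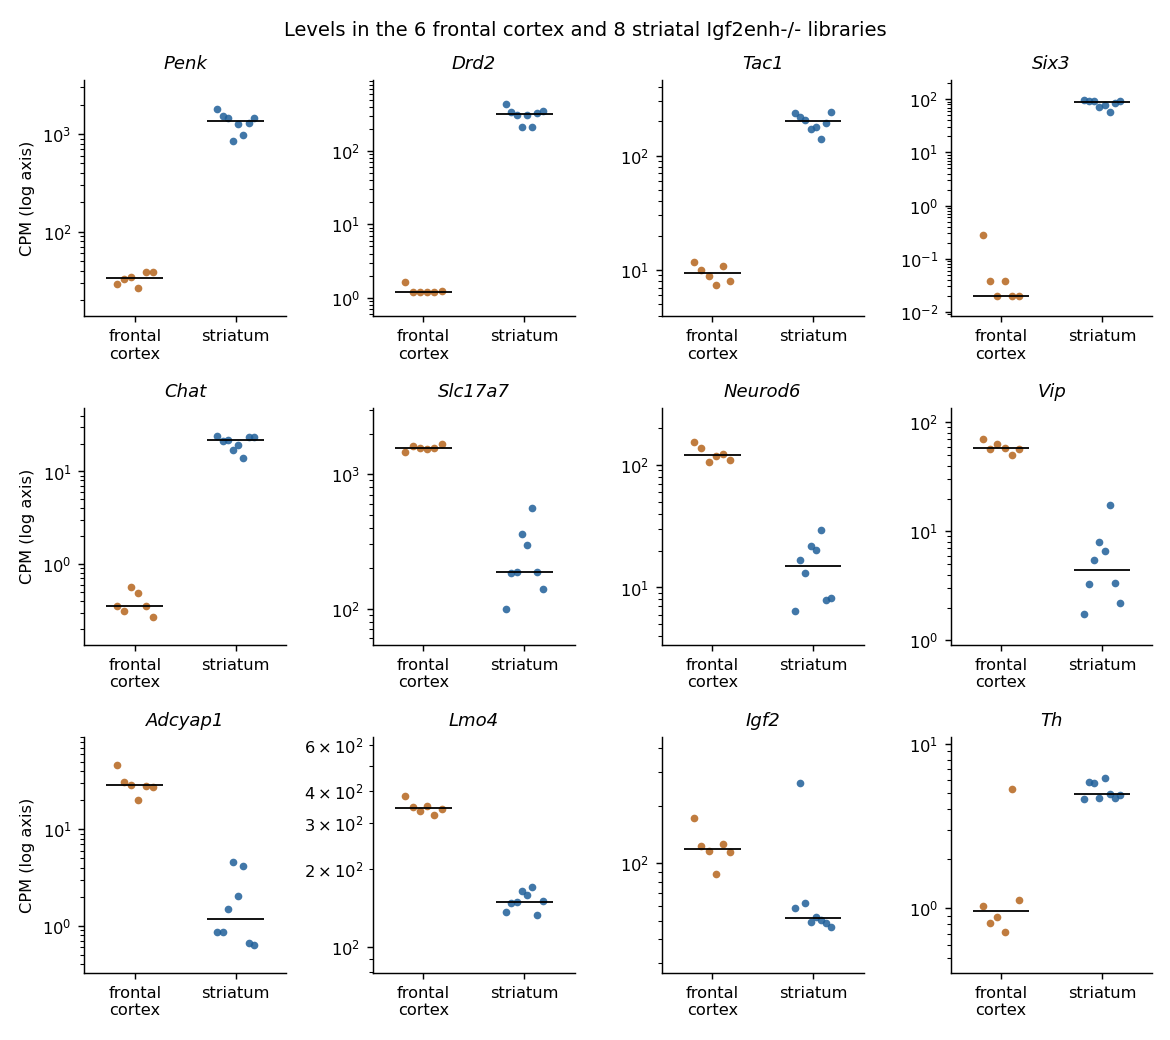
Points are the level in CPM, on a log axis, of 12 genes in each Igf2enh-/- library of frontal cortex (n = 6) and striatum (n = 8), and bars are medians. Libraries at 0 are drawn at 0.02 CPM. Penk, Drd2, Tac1, Six3 and Chat lie higher in every striatal library, Slc17a7, Neurod6, Vip, Adcyap1 and Lmo4 lie lower, while for Th 1 cortical library lies within the striatal range and for Igf2 1 striatal library lies above every cortical one.

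Enzymes that make and break cyclic nucleotides differed by isoform. Of 17 tested phosphodiesterase genes, 9 were higher and 5 lower in the striatum, and 35.3% and 33.8% of all genes tested were. Pde10a, the dual-specificity enzyme of medium spiny neurons, ran from 50.6 to 81.8 CPM in the cortex (median 59.8) and from 1244 to 2366 CPM in the striatum (median 1859), with a log2 fold change of 4.88 ± 0.18 (adjusted p = 2.0e-11). Pde1b, which calcium and calmodulin activate, was higher by 3.39 ± 0.12, Pde1c by 3.12 ± 0.12 and Pde7b by 2.70 ± 0.15. Pde1a was lower, at -1.56 ± 0.16. The identifier that carried the symbol Pde2a was at 0.0406 CPM or less in every library of both regions and could not be tested. Only 32688 of 52636 identifiers had a symbol, and reads of this gene under an identifier without one would be missed. The value therefore does not show that Pde2a is silent. Of 9 tested adenylyl cyclases 2 were higher and 6 lower. Adcy5 ran from 156 to 166 CPM in the cortex (median 160) and from 1211 to 2189 CPM in the striatum (median 1904), with 3.46 ± 0.11 (adjusted p = 6.4e-12). Neither Pde10a nor Adcy5 overlapped between the regions. Adcy1 and Adcy2 were lower, at -1.28 ± 0.11 and -1.80 ± 0.12. Gnal and Gng7, which encode subunits of the G protein that couples D1 and adenosine receptors to the cyclase, were higher by 2.31 ± 0.09 and 4.13 ± 0.15.

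Of 16 transcription factors listed for the striatum, 15 were higher there and 1, Dlx1, was lower. Six3, a homeobox gene of the D2 class, ran from 0 to 0.277 CPM in the cortex (median 0.0188) and from 58.2 to 95.5 CPM in the striatum (median 89.2), with a log2 fold change of 10.4 ± 0.26 (adjusted p = 5.5e-13). The cortical libraries held 9 Six3 counts in all, so the size of this ratio rests on few reads. Isl1, a factor of the D1 class and of cholinergic neurons, ran from 0 to 0.713 CPM in the cortex (median 0) and from 11.6 to 21.4 CPM in the striatum (median 18.6), with 7.27 ± 0.45 (adjusted p = 3.5e-09). Its 18 cortical counts were all in library 1, which also held the highest cortical Six3 and Drd2. Foxp1 and Foxp2, forkhead factors, were higher by 1.75 ± 0.11 and 2.92 ± 0.14, and Bcl11b, which encodes CTIP2, by 2.58 ± 0.11. Dlx1, a factor of forebrain GABA neurons, overlapped between the regions, at 23.8 to 35.8 CPM and 9.49 to 36.2 CPM, and was lower at -0.84 ± 0.18 (adjusted p = 0.00076), while its relatives Dlx5 and Dlx6 were higher by 2.12 ± 0.08 and 2.91 ± 0.10. Receptors for retinoic acid were among the factors. Rarb was higher by 3.98 ± 0.12 and Rxrg by 5.15 ± 0.22, and Rara was lower at -1.10 ± 0.12. Of 16 tested retinoid genes 11 were higher and 4 lower, and Crabp1, a retinoic acid binding protein, was higher by 4.34 ± 0.45.

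Genes of cholinergic neurons were higher in the striatum in 4 of 4 tested cases. Chat, which makes acetylcholine, ran from 0.269 to 0.561 CPM in the cortex (median 0.356) and from 13.9 to 24.1 CPM in the striatum (median 21.6), with a log2 fold change of 5.70 ± 0.16 (adjusted p = 1.9e-12) and no overlap. Slc5a7, the choline transporter, was higher by 4.82 ± 0.15. Ache, which breaks down acetylcholine, differed less, at 0.49 ± 0.04. Of the muscarinic receptors, Chrm4 was higher by 1.91 ± 0.14 and Chrm3 lower at -1.54 ± 0.10. Genes for making and packing GABA were higher, Gad1 by 0.84 ± 0.05, Gad2 by 1.38 ± 0.07 and Slc32a1 by 1.62 ± 0.07. Among 15 interneuron genes 4 were higher, 7 lower and 4 did not pass, beside 35.3% higher and 33.8% lower over all genes tested. Pvalb was lower at -1.58 ± 0.22 and Chodl, which marks a rare class with nitric oxide synthase, was higher by 1.88 ± 0.16.

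Cortical identity genes were lower in the striatum to unequal depth. Of 23 tested cortical transcription factors 19 were lower, 15 of them at least 2-fold, and 3 were higher, with a median log2 fold change of -1.43. Bhlhe22 was lowest at -3.40 ± 0.44, followed by Neurod1 at -3.12 ± 0.43. Neurod6, a factor of cortical excitatory neurons, ran from 104 to 154 CPM in the cortex (median 119.5) and from 6.38 to 29.2 CPM in the striatum (median 15.0), with -3.05 ± 0.27 (adjusted p = 1.3e-07) and no overlap. Tle4, a co-repressor of deep-layer neurons, was the most increased of the 3, at 1.51 ± 0.09. Of the other vesicular glutamate transporters, Slc17a8, which cholinergic interneurons carry, was higher in the striatum by 2.22 ± 0.12. Slc17a6, the transporter of thalamic neurons, was lower at -1.11 ± 0.34, and library 19 stood at 20.5 CPM, above every cortical library. Without it Slc17a6 was lower at -1.39 ± 0.28 (adjusted p = 0.00042).

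Spread within the striatum divided these genes. Neurod1 spanned 21.2-fold from the lowest to the highest striatal library, Slc17a7 5.65-fold and Neurod6 4.58-fold, while Lmo4, a LIM-only factor, spanned 1.27-fold, Etv1 1.32-fold and Lhx2 1.37-fold. The striatal Neurod1 span ran from 0.267 CPM in library 27 to 5.65 CPM in library 23, so its size rests on few reads. In the cortex Neurod1 spanned 1.33-fold and Slc17a7 1.14-fold. Over the 965 genes at least 2-fold lower, the median SD of log2 CPM was 0.353 in the striatal and 0.169 in the cortical libraries, against 0.119 and 0.103 over all genes tested. Without libraries 19 and 23, which were chosen for their high Slc17a7 and low Penk so that larger differences follow from the choice, Slc17a7 stood at -3.10, Neurod6 at -3.37, Neurod1 at -4.05 and Lmo4 at -1.25. The lowest striatal library held Slc17a7 at 6.28% of the cortical mean and the highest at 35.5%.

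The 15 largest differences in each direction were named by a rule that asked for at least 10 CPM in the higher region and no overlap. Among the higher genes not yet described, Serpina9, a serine protease inhibitor, stood at 7.83 ± 0.22, Sh3rf2, an SH3 domain protein, at 7.82 ± 0.25, Lrrc10b, a leucine-rich repeat gene, at 7.41 ± 0.19 and Ano2, a chloride channel, at 7.03 ± 0.15. Cd4, known as the T helper cell co-receptor, ran from 0.277 to 0.721 CPM in the cortex (median 0.616) and from 45.9 to 102 CPM in the striatum (median 83.4), with 7.07 ± 0.20 (adjusted p = 1.5e-12). Ptpn7, a phosphatase known from blood cells, was higher by 8.35 ± 0.35, Gpx6, a glutathione peroxidase, by 8.18 ± 0.35 and Olfr1393, an olfactory receptor gene, by 7.17 ± 0.24, each on 11 cortical counts or fewer. Ttr stood apart from this group. It ran from 5.49 to 3092 CPM in the striatum (median 7.01), against 0.713 CPM or less in the cortex, with 10.9 ± 2.53 (adjusted p = 0.0014). Library 15 held the value of 3092 CPM and library 19 the next at 106 CPM, and without library 15 the log2 fold change was 6.64 ± 1.17 (adjusted p = 0.00017). Other genes moved with a single library while their calls held. Slc13a4, a sulfate carrier, went from -2.15 to -3.24 without library 15. Without library 9, Slitrk6, a neurite-guiding membrane protein, went from 5.73 to 6.61 and Prss56, a serine protease, from 3.99 to 4.46.

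Among the lower genes, Adra1d, the alpha-1D adrenergic receptor, ran from 37.2 to 42.9 CPM in the cortex (median 39.2) and from 0.534 to 7.89 CPM in the striatum (median 1.21), with a log2 fold change of -4.22 ± 0.39 (adjusted p = 2.2e-07). Grm2, a presynaptic glutamate receptor, ran from 78.0 to 104 CPM (median 86.5) and from 2.13 to 25.6 CPM (median 4.76), with -3.72 ± 0.42 (adjusted p = 1.5e-06). Slc30a3 loads zinc into synaptic vesicles and was lower at -3.51 ± 0.39, Nrn1, a neurite growth factor, at -3.36 ± 0.39, Prdm8, a transcriptional regulator, at -3.48 ± 0.39 and Hkdc1, a hexokinase domain protein, at -3.78 ± 0.36. Tafa1, a secreted ligand, stood at -3.60 ± 0.43, Glt8d2 at -3.51 ± 0.36, Adam33 at -3.32 ± 0.43 and Tnnc1 at -3.20 ± 0.30. Fmod, a gene of meningeal fibroblasts, stood at -3.40.

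**Figure D4:**
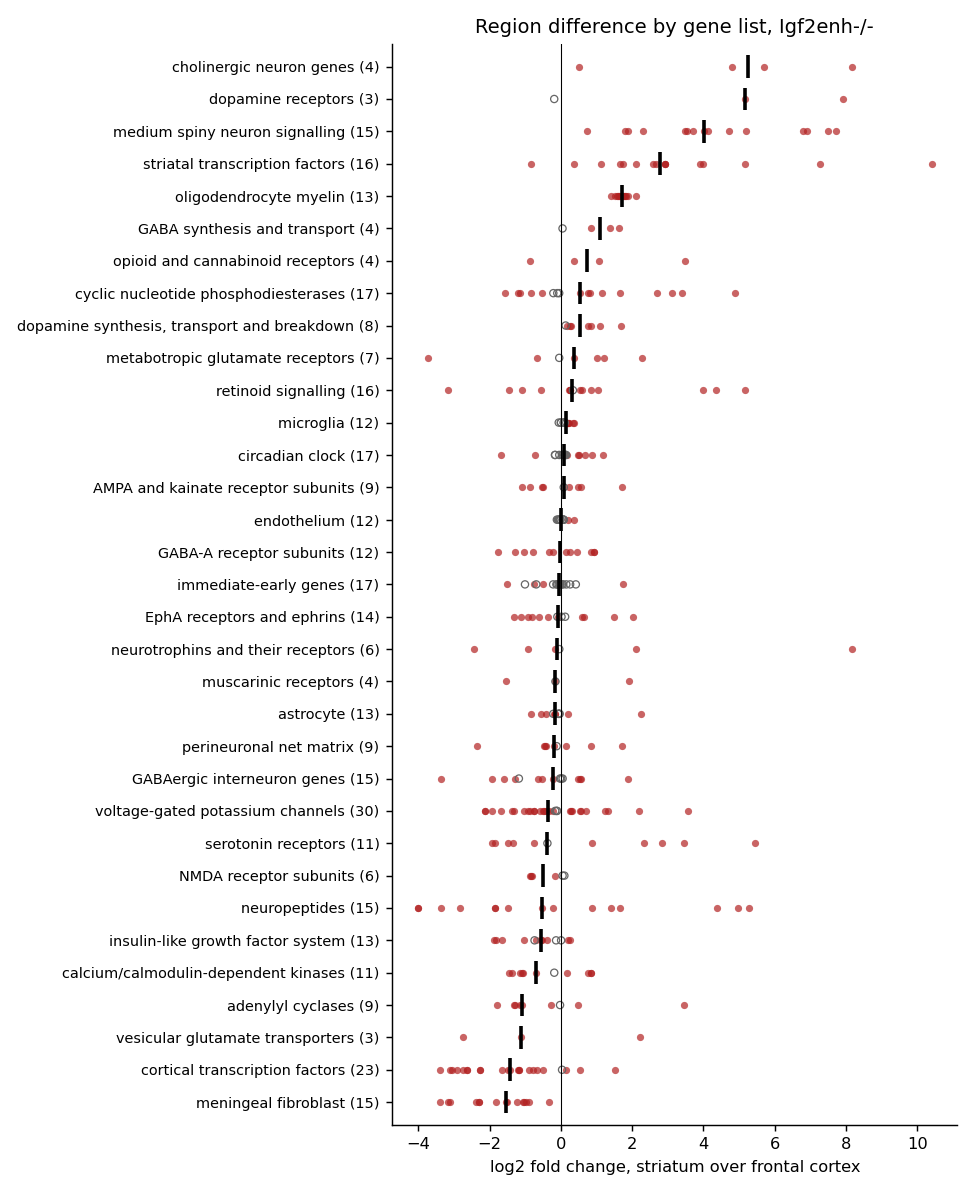
Each point is the log2 fold change of striatum over frontal cortex in Igf2enh-/- mice for a tested member of a gene list, filled where the adjusted p was under 0.05 and open elsewhere, with a bar at the median of the list and the number tested in brackets. Medians run from -1.54 for meningeal fibroblast genes to 5.26 for genes of cholinergic neurons.

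Receptors and channels of the synapse differed in direction from subunit to subunit. Metabotropic glutamate receptors gave 4 higher and 2 lower of 7, with Grm4 higher by 2.29 ± 0.11 and Grm5 by 1.20 ± 0.07. AMPA and kainate subunits gave 4 and 4 of 9, with Grik2 higher by 1.71 ± 0.10 and Grik4 lower at -1.09 ± 0.12. NMDA subunits gave 0 higher and 4 lower of 6, with Grin2a lower at -0.82 ± 0.10. GABA-A subunits gave 6 and 6 of 12, with Gabrd higher by 0.93 ± 0.11 and Gabrg3 by 0.92 ± 0.08, and Gabra3 lower at -1.77 ± 0.15. Serotonin receptors gave 5 and 5 of 11. Htr1d was higher by 5.46 ± 0.28, Htr4 by 3.46 ± 0.28, Htr1b by 2.85 ± 0.13 and Htr2c by 2.33 ± 0.19, and Htr3a was lower at -1.94 ± 0.20.

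Of 30 voltage-gated potassium channel genes 10 were higher and 17 lower. Kcna5 was higher by 3.57 ± 0.17 and Kcna4 by 2.18 ± 0.10, and Kcnc4 was lower at -2.13 ± 0.20 and Kcnh7 at -2.12 ± 0.19. Calcium/calmodulin-dependent kinases gave 4 higher and 6 lower of 11. Camk2a, an abundant kinase of the synapse, ran from 5431 to 5702 CPM in the cortex (median 5500) and from 2358 to 3258 CPM in the striatum (median 2617), with -1.06 ± 0.06 (adjusted p = 1.4e-09), while Camk2b was higher by 0.76 ± 0.07. EphA receptors and ephrins gave 4 higher and 7 lower of 14, led by Efnb3 at 2.03 ± 0.12. Bdnf, a neurotrophin made by cortical neurons, ran from 29.0 to 62.2 CPM in the cortex (median 32.4) and from 3.66 to 11.5 CPM in the striatum (median 6.18), with -2.45 ± 0.25 (adjusted p = 5.5e-07). Neither Camk2a nor Bdnf overlapped between the regions. Genes of the perineuronal net, the matrix around fast interneurons, gave 3 higher and 5 lower of 9, with Hapln4 lowest at -2.37 ± 0.27.

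The deleted fragment lies in the intergenic region between H19 and Igf2, so the genes of that neighbourhood were read in each region. Igf2, a growth factor of meninges, choroid plexus and vessels in the adult brain, lies at chr7:142650768-142666816 (GRCm38). It ran from 88.0 to 171 CPM in the cortex (median 119) and from 46.4 to 262 CPM in the striatum (median 51.6). Library 15 held the 262 CPM, the next striatal value was 61.8 CPM, and without library 15 the groups did not overlap. The log2 fold change was -0.74 ± 0.33 with all libraries, which missed the threshold (adjusted p = 0.058), and -1.20 ± 0.10 without library 15 (adjusted p = 2.1e-07). Leaving out library 5, of frontal cortex, also brought it past the threshold, at -0.84 ± 0.35 (adjusted p = 0.048). The exact two-sided permutation test gave p = 0.034 with all libraries and p = 0.0012, the smallest that 7 against 6 can give, without library 15. In wild-type mice the difference was -0.88 ± 0.11 (adjusted p = 2.1e-05), from 51.8 to 106 CPM in the cortex and from 34.1 to 44.2 CPM in the striatum. H19 was at 0.186 CPM or less in every Igf2enh-/- library, and Ins2 was at 0 in every cortical library and at 0.633 CPM or less in the striatum.

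Igf2 was read beside the tissues that carry it. The summed meningeal fibroblast list ran from 669 to 900 CPM in the cortex and from 136 to 216 CPM in the striatum, and 15 of its 15 genes were lower in the striatum, with a median log2 fold change of -1.54. Ptgds, a prostaglandin synthase, was lower at -2.39 ± 0.09 and Slc22a6, an organic anion carrier, at -3.12 ± 0.14. Library 1, which held the highest cortical Igf2 at 171 CPM, was the highest cortical library for 13 of the 15 meningeal genes, and library 15 the highest striatal library for 14 of them. The part of meningeal and choroid tissue in the Igf2 difference was not tested. Of 13 tested genes of the insulin-like growth factor system 2 were higher and 8 lower. Igf1 was lower at -1.82 ± 0.14 and Igfbp6, a binding protein with preference for IGF2, at -1.89 ± 0.10. Igf1r, the signalling receptor, did not pass (0.01 ± 0.04, adjusted p = 0.92), and Igf2r, which clears IGF2, was higher by 0.26 ± 0.05. Igfbp2 stood at 46.3 CPM in library 15, above every cortical library, and at 13.0 CPM or less in the other striatal libraries. Its log2 fold change was -1.64 ± 0.45 with all libraries and -2.32 without library 15.

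Myelin genes were higher in the striatum in 13 of 13 cases, between 1.40 and 2.10 on the log2 scale. Mbp, the myelin basic protein gene, ran from 424 to 821 CPM in the cortex (median 704) and from 1944 to 2451 CPM in the striatum (median 2141), with 1.71 ± 0.11 (adjusted p = 7.9e-09) and no overlap. The lowest cortical Mbp was in library 1. Astrocyte genes gave 2 higher and 6 lower of 13, and Agt, the angiotensinogen gene, was the largest at 2.25 ± 0.22. Microglial genes gave 6 higher and 0 lower of 12, by 0.36 or less, and endothelial genes 2 higher and 0 lower of 12. Choroid plexus genes gave 4 higher and 0 lower of 6 tested, with a median of 2.83, and without library 15 4 higher and 2 lower, with a median of 1.21. Kl, the klotho gene, stood at 118 CPM in library 15 and at 3.38 to 7.65 CPM in the others, with 2.27 ± 0.88 (adjusted p = 0.032) with all libraries and 0.72 (adjusted p = 0.018) without library 15. Leaving out library 1, 3 or 5, each of frontal cortex, took Kl out of the calls, at an adjusted p of 0.066, 0.084 and 0.082. Enpp2, which makes lysophosphatidic acid, did not pass with all libraries (0.31 ± 0.45, adjusted p = 0.55) and was lower without library 15, at -0.35 (adjusted p = 0.0039). Calb2, a calcium-binding protein gene of interneurons and olfactory bulb, was at 30.0 CPM in library 9 and at 24.8 CPM in library 19 and did not pass (-1.18 ± 0.52, adjusted p = 0.057). It was lower without library 19, at -1.86 ± 0.37 (adjusted p = 0.00045), without library 7, at -1.43 ± 0.52 (adjusted p = 0.027), and without library 11, at -1.41 ± 0.54 (adjusted p = 0.032). Immediate-early genes, which follow recent activity, gave 1 higher, 3 lower and 13 not called of 17. Nr4a2 was higher by 1.75 ± 0.25 and Ier2 lower at -1.51 ± 0.20. Genes of the circadian clock gave 6 higher, 2 lower and 9 not called of 17. Dbp, a clock output factor, ran from 45.2 to 72.7 CPM in the cortex (median 56.1) and from 91.0 to 180 CPM in the striatum (median 135), with 1.19 ± 0.13 (adjusted p = 1.4e-06), and Bhlhe40 was lower at -1.69 ± 0.13. Ciart (0.06 ± 0.13, adjusted p = 0.69), the cold-inducible Rbm3 (-0.08 ± 0.05, adjusted p = 0.19) and the glyoxalase gene Glo1 (-0.05 ± 0.03, adjusted p = 0.15) did not pass the test.

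The same contrast in wild-type mice, from other libraries, was set beside that in Igf2enh-/- mice to ask whether it depended on the enhancer. Of 14586 genes tested there, 5063 were higher (34.7%) and 4656 lower (31.9%), with 843 (5.78%) and 885 (6.07%) at least 2-fold. Of the 902 genes at least 2-fold higher in Igf2enh-/- mice, 765 were called so in wild-type mice, which is 84.8% of the Igf2enh-/- and 90.7% of the wild-type list. Of the 965 at least 2-fold lower, 804 were, or 83.3% and 90.8%. None of the 902 was called lower and none of the 965 higher in wild-type mice by edgeR. Over the 14414 genes tested in both genotypes the log2 fold changes had a Pearson r of 0.984, a description across genes, which are not replicates, and differed by a median of 0.06. Penk differed by 5.29 in Igf2enh-/- and 5.15 in wild-type mice, Drd2 by 7.93 and 8.19, Neurod6 by -3.05 and -2.61 and Mbp by 1.71 and 1.90. The term for a region difference that depends on genotype, fitted over all 27 libraries with 14397 genes, called 0 genes (0.0%) by edgeR's quasi-likelihood test, its likelihood ratio test, DESeq2 and limma-voom. At an unadjusted p under 0.05 there were 418, and the smallest adjusted p was 1.00. For Igf2 the term was 0.15 ± 0.39 (unadjusted p = 0.71) and for Th -0.78 ± 0.49 (unadjusted p = 0.13). Libraries 15 and 9 entered both terms. In Igf2enh-/- mice the Igf2 difference went from -0.74 to -1.20 without library 15. The Th difference there went from 1.69 to 2.51 without library 9. Neither term can be read apart from these libraries. With both libraries left out the term again called 0 genes by edgeR. The wild-type striatum was also uneven in cortical transcripts, with Slc17a7 from 13.7 to 751 CPM.

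**Figure D5:**
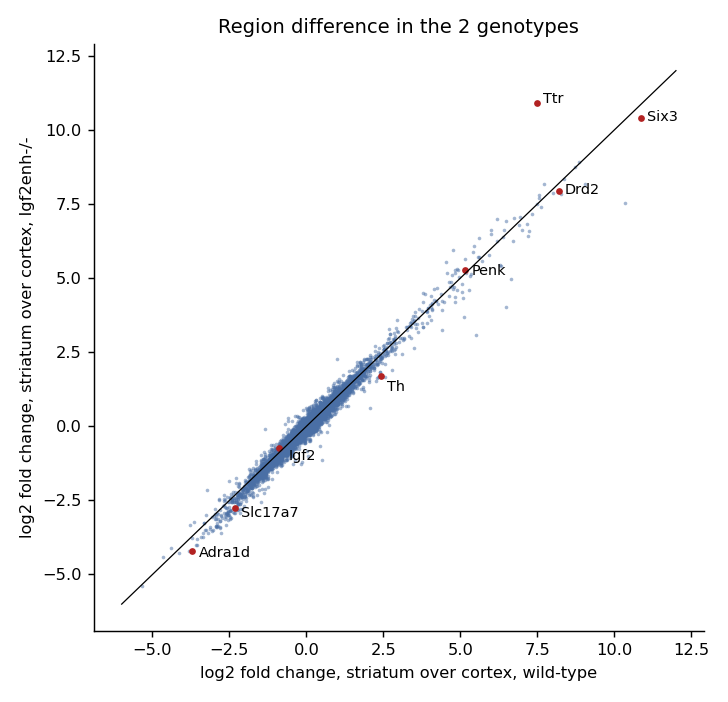
Each of the 14413 points is a gene, with the log2 fold change of striatum over frontal cortex in wild-type mice on the horizontal and in Igf2enh-/- mice on the vertical axis, and a line of equality. Isl1, which was at 0 in every wild-type cortical library, is not drawn. Genes lie along the line with a Pearson r of 0.984 over all genes tested in both, and Ttr lies above it, at 7.47 and 10.9.

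Females and males of the Igf2enh-/- mice were compared within the contrast. The term for a region difference that depends on sex called 0 genes (0.0%) of 14602 by edgeR's quasi-likelihood test, and 0 by its likelihood ratio test, DESeq2 and limma-voom. At an unadjusted p under 0.05 there were 779, and the smallest adjusted p was 0.83. The striatal libraries with the most Slc17a7, 23, 19 and 21, were all from males. Library 27, the remaining male one, stood at 139 CPM. Among the females, libraries 15, 17 and 25 stood at 185 to 188 CPM and library 13 at 98.7 CPM. The median log2 fold change of cortical transcription factors was -1.67 in females and -1.21 in males, and that of medium spiny neuron signalling genes 4.22 and 3.84. Th was higher in the striatum by 2.53 in females and, with library 9 among the 3 male cortical libraries, by 1.09 in males, where it missed the threshold (adjusted p = 0.13).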

How the data were processed

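Total RNA was extracted from dissected frontal cortex and striatum, depleted of ribosomal RNA and sequenced as single-end reads. Per the labels and the study's methods, the authors used Trim Galore 0.5.0 for trimming and STAR for alignment to GRCm38 (GENCODE vM15 genes), and deposited raw read counts per gene. The strand setting of the counting is not given in the sources used here, so reads of a gene and of an overlapping antisense gene, such as Igf2 and Igf2os, cannot be told apart.

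Groups were taken from the labels. Of 52636 gene identifiers, 32688 had a symbol, and positions and promoters were matched by symbol to RefSeq for GRCm38.p6. The filter asked for 1 CPM in all libraries of either region. TMM-normalized counts entered edgeR 4.0.16 under R 4.3.3 (quasi-likelihood F-test), with terms for sex and region and Benjamini-Hochberg adjusted p-values. Standard errors are the log2 fold change divided by the root of F. Region by genotype was tested over 27 libraries and region by sex over 14. Alternatives were DESeq2 1.42.0, voom from limma 3.58.1, the edgeR likelihood ratio test, other scalings and filters, no sex term, each sex alone and left-out libraries. Exact permutation tests of log2(CPM + 0.5) were run for Igf2 and Th only. All other p-values printed for single genes came from the edgeR quasi-likelihood F-test. The labels describe separate samples but do not tie regions to mice, so p-values measure the spread between libraries. Fits were tested on simulated data. Figures were drawn with matplotlib 3.10.9.

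Members and lists were chosen with earlier results of these data known. The genes named were the 15 of largest difference in each direction (at least 10 CPM in the higher region, no overlap), list members (any for receptors, transporters, peptides and transcription factors, else up to 6 by size), the locus and genotype genes, the tissue markers, and genes moved most by library 15 or 9. Itpr1, Gnal, Gng7, Camk2a, Camk2b, Mbp, Ptgds, Igfbp2, Pvalb and Cdh1, among others outside this rule, were chosen after their values were seen. Results for a few list members are not reported here, while counts over lists include them.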

Additional observations from a re-analysis of the deposited data

Results flagged for a closer look

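In 76 groups of 6 or 8 libraries, the gap between the outermost library and its neighbour was compared with the range of the group on the scale of log2 CPM, and 11 gaps exceeded the Dixon limit at the 95% level. Chance alone passes that limit in about 1 group in 20.

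Library 15 stood apart in the striatum for Igf2 (0.835 of the range, 262 CPM) and for Ttr (0.539 of the range, 3092 CPM), and it also held the choroid plexus list at 4837 CPM. Library 1 stood apart in the frontal cortex for genes of medium spiny neurons, with Six3 at 0.277 CPM (0.832 of the range), Drd2 at 1.62 CPM (0.913) and Isl1 at 0.713 CPM, where the other libraries were at 0 (1.0). Library 9 was the high cortical library for Th (0.818 of the range, 5.31 CPM), and it held the olfactory bulb list at 85.1 CPM. Library 23 was the low striatal library for Isl1 (0.678 of the range, 11.6 CPM) and the high one for Adam33 (0.618 of the range, 4.78 CPM), in the direction of the cortex for both genes. In the frontal cortex, library 7 was low for Hkdc1 (0.871 of the range, 26.9 CPM) and for Tnnc1 (0.641 of the range, 5.11 CPM), and library 5 was high for Tafa1 (0.683 of the range, 76.0 CPM). The part of neighbouring tissue in these values was not tested.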

How the results depend on the processing

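The counts of called genes, the absence of calls for the genotype and sex terms, Igf2 and Th were recomputed under up to 27 alternatives. No DESeq2 result was among them for Igf2 or Th, and the filter over all libraries gave none for Th. Genes at least 2-fold higher fell to 599 with the filter over all libraries, which tests fewer genes, and rose to 1987 without a filter, where those at least 2-fold lower rose to 1933. Leaving out each library gave 4893 to 5207 higher and 4819 to 4976 lower genes, 876 to 935 and 919 to 1034 of them at least 2-fold. Scaling by total count gave 5395 higher and 4675 lower. Igf2 passed the threshold with the likelihood ratio test (-0.745), limma-voom (-0.912), no filter (-0.744), males only (-1.14) and without libraries 15 and 9 (-1.16), and ran from -1.20 to -0.65 over left-out libraries. Th missed it in males only (1.09) and ran from 1.53 to 2.51 over left-out libraries.

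Of the other genes named, 3 changed sign, each under alternatives in which its difference was small or library 15 was absent. Ciart was at -0.041 in males and -0.050 without libraries 15 and 9, and ran from -0.020 to 0.12 over left-out libraries. Enpp2, for which there was no DESeq2 result, was at -0.35 in males and -0.37 without libraries 15 and 9, and ran from -0.35 to 0.40. Igf1r was at -0.0035 with the filter over all libraries, -0.0031 with filterByExpr, -0.020 in females and -0.0052 without libraries 15 and 9, and ran from -0.024 to 0.024. Ttr missed the threshold with limma-voom (7.72 ± 4.60). The cause of these changes was not tested. No paired analysis was possible because each library number occurs once, and the labels do not tie the regions to mice. Genes near 1 CPM rest on 24.6 to 33.5 reads a library.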
